A study of Mus musculus with 75 samples.

Results

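The age difference in liver RNA was examined in male C57Bl/6 mice exposed to tributyltin (TBT) through their mothers and classed by the submitters as low risk. TBT is an organotin compound that activates the nuclear receptors RXR and PPARγ. The comparison took all libraries of sequencing batch 1 with the risk group low-risk TBT: 5 libraries of 10 months (mouse numbers 2, 4, 8, 9 and 10) and 6 of 5 months (numbers 2, 3, 5, 6, 7 and 16). These are 11 of the 75 libraries of the series. The dams drank water with 3.07 µM TBT, given as 0.5 mg/kg bodyweight daily, until the pups were weaned, so both ages carry the same early exposure. No later dosing of the offspring is given in the labels. The labels do not state how risk was assigned at 5 months, and they give a mouse number but no litter, so p-values measure the spread between these libraries. Vehicle livers of batch 1 (6 of 10 months, 7 of 5 months, same strain and sex, no TBT) gave the same age step without exposure, and 10 further low-risk libraries of 5 months came from batch 2. All 10-month libraries are of batch 1, so those 10 were used for levels and for the spread only. One of the 10 had 84.6 CPM (counts scaled to a common library total) of Xist, the X-inactivation RNA of females. All 10 had at least 134.851 CPM of Y-linked genes together. The 11 libraries compared had at most 0.575 CPM of Xist.

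Liver holds mostly hepatocytes, with endothelial, Kupffer, stellate, lymphoid and bile duct cells in smaller numbers. In bulk RNA a smaller share of a cell type and less RNA per cell cannot be told apart. Much of the hepatocyte transcriptome follows the circadian clock, a loop in which the activators Arntl and Clock (or Npas2) drive Per, Cry, Nr1d1 and Dbp, which peak at other times of day. The liver also answers inflammation with acute phase proteins, metals and glucocorticoids with metallothioneins, and feeding with lipid and cholesterol synthesis. The labels give no time of day or feeding state.

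The labelled tissue was checked against hepatocyte identity genes (Alb, Apoa1, Ttr, Hnf4a and others). Their summed level ran from 95418 to 128080 CPM at 5 months and from 113120 to 117660 CPM at 10 months in the hepatocyte identity list. All CPM values here share 1 TMM scaling over 34 libraries, except those of Xist and the Y-linked genes, which were scaled to the library total alone. Total counts ran from 26.4 to 33.5 M at 10 months and from 7.72 to 45.1 M at 5 months. Genes detected numbered 21663 to 22578 and 15118 to 25544. Mitochondrially encoded genes held 2.94% to 3.08% of counts at 10 months and 2.26% to 4.01% at 5 months, except 11.2% in 5-month library 16. Of 4 such library measures, none differed between ages by exact two-sided permutation tests (smallest Benjamini-Hochberg adjusted p 0.242; the smallest p the design allows is 0.00216). Leaving out 5-month library 7 for total counts, or library 2 for the share of the 20 most abundant genes, gave an adjusted p of 0.0318 by the same exact test.

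The livers of 10 months were more alike than those of 5 months. Pairs of 10-month libraries correlated at r = 0.989 to 0.994 (log2 CPM + 1 over genes), and pairs of 5-month libraries at 0.923 to 0.986. The median gene had an SD of 0.140 on the log2 scale at 10 months and 0.350 at 5 months, and 93.1% of 14654 genes had the larger SD at 5 months. Without libraries 5 and 16 of 5 months that SD was 0.219 and the share 76.4%. Vehicle livers had the same order, with 0.145 at 10 months and 0.383 at 5 months. The vehicle 5-month value includes library 9, which had only 2.83 M counts, and was not computed without it. Depth was also less even at 5 months, and its part in the spread was not tested.

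The 5-month libraries with the most outlying genes differed in their leading genes, with some in common such as Lcn2 in 3 and 16 and Mt1 in 3 and 5. For every library, genes were counted that lay at least 4-fold (on CPM + 1) above or below the median of the other 10. In 5-month library 2, 135 genes lay above and 7 below. The leading ones are known from absorptive and mucous epithelium: Slc5a1, the intestinal sodium-glucose transporter, had 429 CPM against 1.57 to 3.37 CPM in the others. Vil1, the microvillus protein villin, had 71.1 CPM against 0 to 0.795. Cdhr2, a cadherin of the brush border, had 185 CPM against 0 to 0.802, and Fcgbp, a mucus protein, had 596 CPM against 0.0530 to 1.05. The epithelial genes Krt19 and Epcam had 74.8 and 91.5 CPM there. Reg3b, an antimicrobial lectin of the gut, had 354 counts in library 2, 31 in library 3 and 0 in the other 9.

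Library 3 of 5 months carried an acute phase pattern, with 42 genes above and 13 below. Saa1 and Saa2, serum amyloids made by hepatocytes in inflammation, had 5820 and 6230 CPM, against at most 989 and 685 CPM in the other 10. Lcn2, a siderophore-binding protein of inflamed liver, had 1019 CPM against 1.58 to 127, and S100a8, a neutrophil protein, had 14.9 CPM against 0.372 to 1.41. Library 16 had 89 genes above and 43 below, led by mitochondrial transcripts. There mt-Nd5, a subunit of respiratory complex I, had 19860 CPM against 967 to 2363, and mt-Nd6 had 4143 CPM against 170 to 397, whereas mitochondrial ribosomal RNA held 0.144% of counts, against 0.824% to 0.900% in the 10-month libraries. Cdkn1a, the cell cycle inhibitor p21, had 29.0 CPM in library 16 against 0.392 to 4.85. Library 5, the shallowest, had 31 genes above and 36 below, among them Creld2, a chaperone of the endoplasmic reticulum, at 203 CPM. Creld2 was also at 144 CPM in library 6 and 141 CPM in library 16, against 15.7 to 48.1 CPM in the other 8. Libraries 6 and 7 had at most 16 genes above or below, and every 10-month library at most 13.

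**Figure D1:**
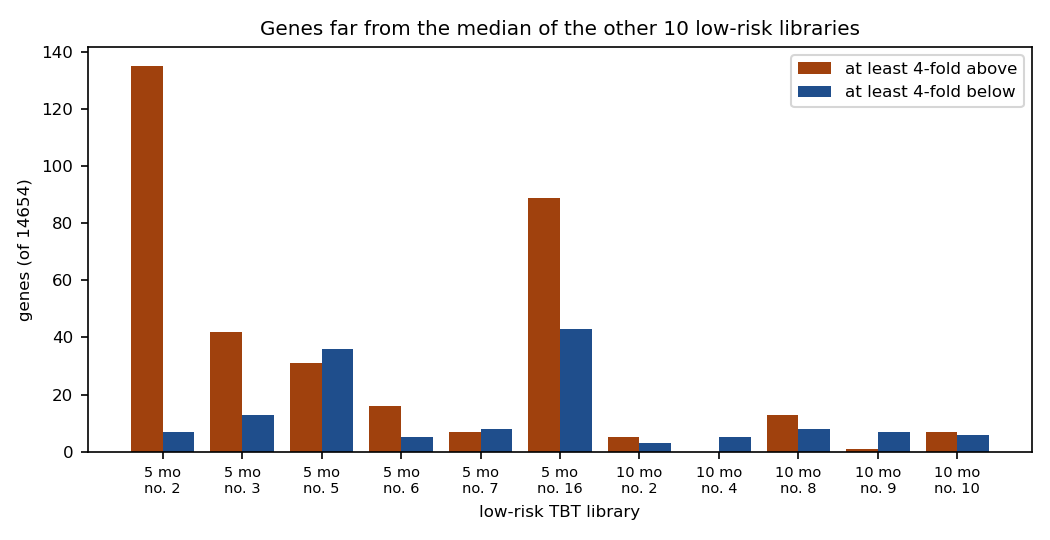
Number of genes, of 14654, at least 4-fold above (red) or below (blue) the median of the other 10 low-risk libraries, by library. Libraries 2 (135 above) and 16 (89 above, 43 below) of 5 months stand out, and no 10-month library has more than 13 in either direction.

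Against this spread, no gene passed the test between 10 and 5 months. The edgeR quasi-likelihood fit called 0 of 14654 genes (0%) at a Benjamini-Hochberg adjusted p of 0.05, and the smallest adjusted value was 0.0768. At an unadjusted p under 0.05, 447 genes (3.05%) were higher at 10 months and 676 (4.61%) lower. The 2 ages did not overlap in CPM for 125 higher (0.853%) and 71 lower genes (0.485%). DESeq2 called 51 of 13939 genes (0.366%), 27 higher and 24 lower, led by Reg3b, whose counts rest on libraries 2 and 3. The edgeR count was also 0 without the mitochondria-rich library 16, 1 without library 6 (Mt2) or 7 (CT010467.1), and 3 without libraries 5 and 16 together (Gm13502, Gm4784 and Gnas, all higher), an alternative chosen after the data were seen. Below, genes are described by their values, and an unadjusted p under 0.05 is only a descriptive mark. List counts of such marks stand beside 3.05% of all genes higher and 4.61% lower. The number of all genes with such a p, 1123, ran from 646 to 1413 when single libraries were left out.

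Among the large differences were those of the metallothioneins, small cysteine-rich proteins that bind zinc and copper. Mt2 (ENSMUSG00000031762, GRCm38 chr8:94172664-94173568) had 6.73, 35.1, 9.70, 0.364, 25.3 and 19.4 CPM in 5-month libraries 2, 3, 5, 6, 7 and 16. At 10 months it had 0.586, 0.141, 0.614, 0.367 and 0.768 CPM in numbers 2, 4, 8, 9 and 10. Five-month library 6 alone lay within the 10-month range. The log2 fold change was -5.01 (SE 0.88, edgeR adjusted p 0.313; DESeq2 adjusted p 3.68e-06), and without library 6 edgeR gave -5.26 with an adjusted p of 0.00317. Mt1 (ENSMUSG00000031765, chr8:94179082-94180327) had 81.7, 391, 195, 3.27, 133 and 45.9 CPM at 5 months and 11.4, 4.34, 12.1, 5.42 and 15.3 CPM at 10 months. Its fold change was -3.85 on the log2 scale (SE 0.95), with an edgeR adjusted p of 0.537. Library 6 was again the 1 exception, below all 10-month values.

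Both genes fell with age in vehicle livers, by 7.0 (Mt2, SE 1.35, adjusted p 0.00913) and 5.92 (Mt1, SE 1.17, adjusted p 0.0102) on the log2 scale by edgeR. There too 1 of 7 libraries of 5 months was low, with 0 CPM of Mt2 and 0.772 CPM of Mt1. Low-risk livers of 5 months in batch 2 ran from 0.313 to 412 CPM of Mt2 (median 6.69), which overlaps the 10-month levels. The interaction, low-risk age change minus vehicle age change, was 1.97 for Mt2 (SE 1.76, edgeR adjusted p 0.947) and 2.05 for Mt1 (SE 1.38, adjusted p 0.909), within 2 SE of 0. Of 7 tested genes of metallothioneins and zinc transport, 6 had a negative log2 fold change. An unadjusted p under 0.05 was found for 2, against 4.61% of all genes lower. The 7 glucocorticoid targets, which include genes that stress hormones induce, were all negative with a median of -0.55. Of these, 2 had an unadjusted p under 0.05, against 4.61% of all genes lower. That median was -0.33 without library 5 and -0.19 without libraries 5 and 16.

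Promoters of the metallothionein pair are shown because both genes are low in the same libraries and because metals act on such genes through a short core read by the zinc-sensing factor MTF-1. The windows are the 250 bases before the RefSeq start (GRCm38.p6, plus strand), chr8:94178839-94179088 for Mt1 and chr8:94172368-94172617 for Mt2, and capitals mark TGCACNC or TGCGCNC on either strand.
Mt1: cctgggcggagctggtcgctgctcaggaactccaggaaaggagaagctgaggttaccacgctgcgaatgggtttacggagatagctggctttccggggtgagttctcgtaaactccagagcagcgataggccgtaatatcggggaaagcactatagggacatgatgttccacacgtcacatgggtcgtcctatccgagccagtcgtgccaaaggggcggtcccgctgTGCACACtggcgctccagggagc
Mt2: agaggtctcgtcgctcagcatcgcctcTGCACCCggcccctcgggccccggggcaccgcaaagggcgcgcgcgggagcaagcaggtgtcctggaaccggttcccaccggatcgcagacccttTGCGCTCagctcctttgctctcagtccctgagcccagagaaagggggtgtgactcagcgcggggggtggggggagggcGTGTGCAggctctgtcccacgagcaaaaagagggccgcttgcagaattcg
The Mt1 window holds 1 match, beginning 23 bases before the start, and the Mt2 window holds 3, at 223, 128 and 50 bases. Of 32851 windows of this length, 21.4% hold at least 1 match, so a match describes the letters and not a bound site.

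**Figure D2:**
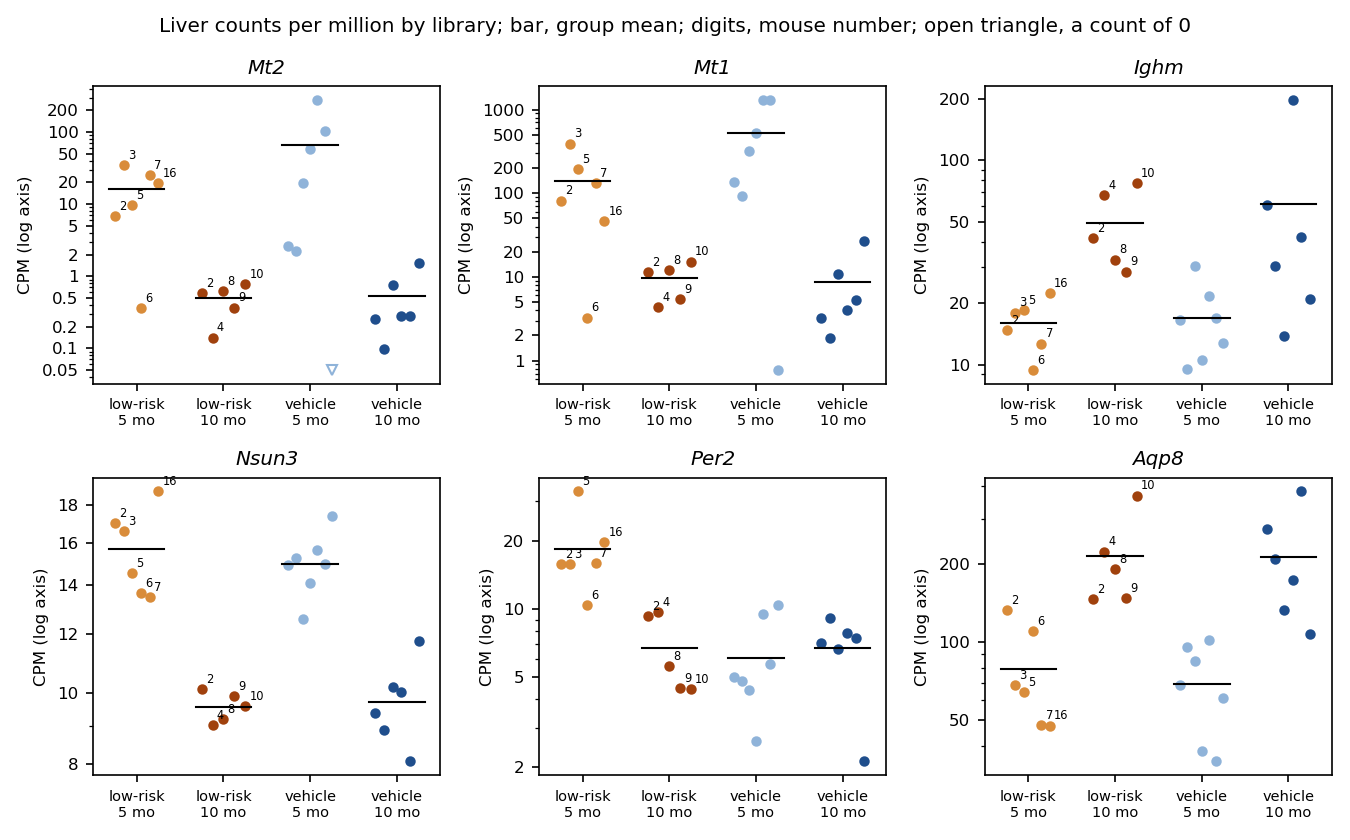
CPM (log axis) of 6 genes in each low-risk and vehicle library of batch 1; bars are group means, digits are mouse numbers and the open triangle is a count of 0. Mt2 and Mt1 are high in 5 of 6 low-risk livers of 5 months, Ighm, Nsun3, Per2 and Aqp8 do not overlap between the low-risk ages, and vehicle Per2 levels run from 2.13 to 10.4 CPM over both ages.

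Among protein-coding genes whose mean reached 5 CPM, the following had the smallest unadjusted p without overlap of the ages in batch 1. They were chosen after their values were seen. Nsun3 (ENSMUSG00000050312, chr16:62732444-62786818), which methylates mitochondrial tRNA, had 17, 16.6, 14.6, 13.7, 13.5 and 18.8 CPM in 5-month libraries 2, 3, 5, 6, 7 and 16, and 10.1, 9.02, 9.21, 9.89 and 9.58 CPM at 10 months. On the log2 scale the difference was -0.72 (SE 0.12), with an edgeR adjusted p of 0.188, beside -0.63 in vehicle livers (adjusted p 0.00575). Aqp8 (ENSMUSG00000030762, chr7:123462291-123468004), a water channel of the bile canaliculus, had 133, 68.3, 64.4, 110, 48.0 and 47.8 CPM at 5 months and 147, 224, 191, 148 and 368 CPM at 10 months. Its difference of 1.45 (log2, SE 0.31, edgeR adjusted p 0.407) stood beside 1.61 in vehicle livers (adjusted p 0.00895). Batch 2 low-risk livers of 5 months ran from 8.61 to 19.8 CPM of Nsun3 and from 31.3 to 282.7 CPM of Aqp8. Both ranges reach into the 10-month levels.

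Rdh11, a retinol dehydrogenase, had 54.0 to 66.9 CPM at 5 months and 68.6 to 143 at 10 months (log2 fold change 0.84). Ccnd2, the G1 cyclin D2, had 10.7 to 20.6 CPM at 5 months and 6.55 to 9.75 at 10 months (-0.96). Coq8a, needed for coenzyme Q synthesis, had 129 to 314 CPM at 5 months and 319 to 519 at 10 months (0.94). Pfn1, the actin-binding profilin, had 134 to 173 CPM at 5 months and 103 to 116 at 10 months (-0.43). Batch 2 low-risk livers of 5 months reached into the 10-month range for each of these genes. They ran from 51.7 to 151.4 CPM of Rdh11, 7.78 to 14.45 of Ccnd2, 116.5 to 499 of Coq8a and 107 to 165 of Pfn1. Further members of this set of 14, of which 13 are described, were Paox (0.55), Gnas (0.85), Khnyn (0.59), Ntrk2 (0.98) and Pxdc1 (0.58) on the higher side, and Prr13 (-0.47) on the lower. Batch 2 levels reached into the 10-month range for each of these further members too, but not for Cxxc1, the member not described. All 14, with Per2 (below), were among the DESeq2 calls. They were picked by small p in the same counts, so these calls are no independent support. In vehicle livers 9 of the 14 were called by edgeR, each in the same direction as in low-risk livers. Over all vehicle genes 4.05% were called higher and 4.08% lower. Rdh11, Paox, Gnas, Ntrk2 and Per2 were not called in vehicles. For Gnas, the vehicle median at 5 months was 4.261 CPM, below the vehicle 10-month range of 5.683 to 7.012 CPM. The highest vehicle liver of 5 months lay above that range, and its weight in the Gnas result was not tested. The missing call therefore does not show that Gnas rose in low-risk livers alone.

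Immunoglobulin M heavy chain RNA was higher at 10 months in each library. Ighm (ENSMUSG00000076617, chr12:113418558-113422730), the antigen receptor chain of B cells, had 14.8, 18.03, 18.6, 9.45, 12.7 and 22.4 CPM at 5 months and 41.8, 67.9, 32.7, 28.6 and 77.1 CPM at 10 months, without overlap. The difference was 1.63 on the log2 scale (SE 0.27; adjusted p 0.188 by edgeR and 9.85e-05 by DESeq2), and 1.82 in vehicle livers (edgeR adjusted p 0.0492). Batch 2 livers of 5 months ran from 10.7 to 70.6 CPM, which reaches into the 10-month range. Of 16 tested B and plasma cell genes, 12 were higher, with a median of 0.42. An unadjusted p under 0.05 was found for 3, all higher, against 3.05% of all genes higher. The median depended on single 5-month libraries: it was 0.95 without number 2, 0.76 without 7, 0.24 to 0.25 without 5, 6 or 16, and 0.08 without 5 and 16 together. Library 2 had 132 CPM of Igha, the mucosal immunoglobulin A chain, against 1.97 to 15.1 CPM in the other 10. Other immune lists were closer to 0: medians were -0.12 over 12 T and NK cell genes, -0.07 over 20 Kupffer cell and macrophage genes and -0.10 over 19 genes of MHC and antigen presentation. None of the T and NK cell or MHC genes had an unadjusted p under 0.05, and 1 Kupffer cell gene, Gpnmb, did (-1.53).

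Clock genes divided the livers by more than age. Per2 (ENSMUSG00000055866, chr1:91415982-91459324), a repressor of the clock loop, had 15.8, 15.8, 33.3, 10.5, 15.9 and 19.8 CPM at 5 months and 9.35, 9.73, 5.599, 4.49 and 4.45 CPM at 10 months. The ages did not overlap, and the difference was -1.45 on the log2 scale (SE 0.30; adjusted p 0.407 by edgeR and 0.00287 by DESeq2). In vehicle livers the value was 0.20 (adjusted p 0.732), and the difference between the age changes was -1.68 (SE 0.47, unadjusted p 0.00147, edgeR adjusted p 0.606). Vehicle livers of 5 months had only 2.62 to 10.4 CPM of Per2, and batch 2 low-risk livers of that age 3.97 to 23.2 CPM. Per1, its paralog, had 6.18 to 21.6 CPM at 5 months and 2.40 to 7.89 at 10 months. Its log2 fold change was -1.48 (edgeR adjusted p 0.562, DESeq2 adjusted p 0.0459).

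Of 19 tested clock genes, 14 had a negative log2 fold change, and 8 of these and 1 positive one had an unadjusted p under 0.05, against 4.61% lower and 3.05% higher over all genes. The median was -0.64 in the circadian clock list and -0.03 in vehicle livers. Ciart, a clock repressor, had a log2 fold change of -2.35 (edgeR unadjusted p 0.0151), and Usp2, a rhythmic ubiquitin protease, of -2.20 (p 0.00546). Bhlhe41 had -1.28 and Nr1d1 -0.60. These values average over livers in unlike states of the loop. Dbp, an output activator that peaks opposite to Arntl, had 51.8 and 51.8 CPM in 10-month libraries 2 and 4 but 5.67, 5.85 and 3.32 CPM in 8, 9 and 10. Arntl had 9.44 and 8.56 CPM in the former and 38.3, 28.1 and 26.1 CPM in the latter. At 5 months Dbp ran from 38.1 to 91.9 CPM and Arntl from 1.44 to 7.49 CPM in numbers 2, 3, 5, 6 and 7. Library 16 had the reverse, 0.424 CPM of Dbp and 42.7 CPM of Arntl, and 23.6 CPM of Npas2 against at most 4.64 in the other 10. Vehicle livers of 5 months had 1.62 to 16.6 CPM of Dbp and 12.4 to 42.1 CPM of Arntl, and batch 2 low-risk livers of that age had medians of 7.65 and 30.4 CPM. Time of death and age cannot be told apart with these labels.

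**Figure D3:**
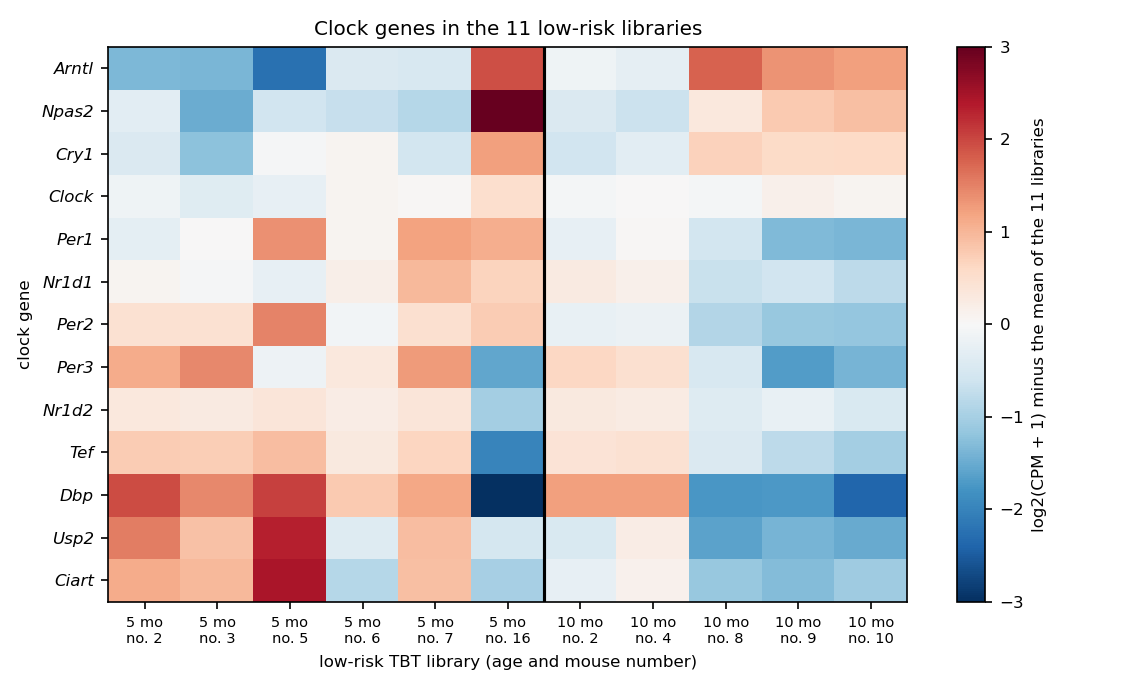
Clock genes in the 11 low-risk libraries, as log2(CPM + 1) minus the gene's mean over the 11; the black line parts 5 from 10 months. Arntl is low and Dbp high in 5-month numbers 2, 3, 5, 6 and 7, and the reverse holds in 5-month number 16 and in 10-month numbers 8, 9 and 10, while numbers 2 and 4 of 10 months lie between for Arntl and within the range of 5-month numbers 2, 3, 5, 6 and 7 for Dbp.

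The E-box CACGTG is the letter pattern through which Arntl and its partner act, so promoters of Per1 and Ciart are shown, again as the 250 bases before the RefSeq start (GRCm38.p6) with the E-box in capitals. The Per1 window is chr11:69098699-69098948 on the plus strand. The Ciart window is chr3:95882229-95882478 on the minus strand, written in the direction of transcription. For Per1, any window without the E-box was left out of the display, so its match was fixed by that choice. The window shown lies within the annotated Per1 gene, which begins at chr11:69095217.
Per1: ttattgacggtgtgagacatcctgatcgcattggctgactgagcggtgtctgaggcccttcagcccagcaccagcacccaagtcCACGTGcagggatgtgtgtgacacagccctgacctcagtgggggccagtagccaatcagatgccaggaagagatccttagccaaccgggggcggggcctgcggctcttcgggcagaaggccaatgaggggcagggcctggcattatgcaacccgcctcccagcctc
Ciart: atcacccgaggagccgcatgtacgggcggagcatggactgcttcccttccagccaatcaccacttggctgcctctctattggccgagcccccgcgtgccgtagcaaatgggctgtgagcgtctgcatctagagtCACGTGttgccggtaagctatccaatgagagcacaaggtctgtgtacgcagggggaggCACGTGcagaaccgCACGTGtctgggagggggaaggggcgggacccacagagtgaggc
The Per1 window shown holds 1 E-box, 166 bases before its RefSeq start, and the Ciart window holds 3, at 116, 58 and 44 bases. Of the 19 tested clock genes 16 matched the table, and 5 of them (Per1, Cry1, Tef, Bhlhe41 and Ciart) had a window with the E-box. Of 32851 windows 6.02% hold it, and 6.86% of all genes have at least 1 such window.

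Lipid and sterol synthesis genes leaned to higher values at 10 months in the batch 1 libraries compared, without passing the test. Of 21 lipogenesis genes, 16 were higher, with a median of 0.26. An unadjusted p under 0.05 was found for 8, all higher, against 3.05% of all genes higher. Acss2, which makes acetyl-CoA from acetate, had 142 to 245 CPM at 5 months and 408, 457, 358, 189 and 422 CPM at 10 months, so that number 9 alone overlapped (0.94, SE 0.21, edgeR adjusted p 0.419; DESeq2 adjusted p 0.0161). Acly, the citrate lyase that feeds lipogenesis, had 218 to 386 CPM and then 458, 598, 571, 287 and 561 CPM (0.78), and again number 9 was the low one. Fasn, the fatty acid synthase, had 369 to 824 CPM at 5 months and 540 to 1336 at 10 months (0.65). Pklr and Me1, which supply pyruvate and NADPH, had log2 fold changes of 0.73 and 0.60. Batch 2 low-risk livers of 5 months had median CPM of 314 (Acss2), 441 (Acly), 695 (Fasn), 241 (Pklr) and 156 (Me1). In the same order, the medians were 189, 273.5, 479, 128 and 159.5 in batch 1 at 5 months. At 10 months they were 408, 561, 817, 225 and 210. Of these genes, Me1 alone had a batch 2 median near that of batch 1 at 5 months. The count of 8 was 3 without 5-month library 3 or 7 or 10-month library 4, and 2 without 10-month library 10. It was 5 without 5-month library 5, and 4 without 5-month libraries 5 and 16. All genes with such a p, in both directions, numbered 1123 in the main fit. They numbered 1413, 1169, 716 and 646, in that order, without 5-month library 3 or 7 or 10-month library 4 or 10. Without 5-month library 5, and without 5 and 16, they numbered 1252 and 1463.

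Of 24 cholesterol synthesis and uptake genes, 22 were higher, 5 of them with an unadjusted p under 0.05, against 3.05% of all genes. Among the lower ones, 1 had such a p. Pmvk, the phosphomevalonate kinase, had 16.5 to 38.3 CPM at 5 months and 32.9 to 64.7 CPM at 10 months (0.82). Fdps, which makes farnesyl pyrophosphate, had 0.84, Lss 0.59 and Insig1, the brake on SREBP processing, 0.42. The median was 0.27, and 0.44 in vehicle livers, where none of the 24 was called. The count of 5 was 12 without 5-month library 16 (median 0.38) and 10 without 10-month library 9 (median 0.35). All genes with such a p, in both directions, numbered 1362 and 681 in those fits. Pparg, the adipogenic receptor that TBT binds, had 10.5, 3.53, 1.05, 6.76, 6.38 and 3.601 CPM at 5 months and 10.00, 13.3, 7.95, 12.4 and 20.03 CPM at 10 months, so 5-month number 2 overlapped. Its log2 fold change was 1.22 (SE 0.40, edgeR adjusted p 0.637), and it rose by 1.35 in vehicle livers (adjusted p 0.0171). The RXR, PPARγ and LXR targets had a median of 0.01 over 15 genes and the PPARα targets 0.02 over 30. Pdk4, a kinase that inhibits pyruvate dehydrogenase in fasting, ran from 1.92 to 14.4 CPM at 5 months and from 4.94 to 52.0 CPM at 10 months. Its log2 fold change was 1.54, and 0.88 without 10-month library 10.

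Transport and detoxification genes showed smaller differences. Abcb11, the bile salt export pump, had 624 to 905 CPM at 5 months and 930 to 1117 CPM at 10 months without overlap. Its log2 fold change was 0.47 (SE 0.13, edgeR adjusted p 0.5555, DESeq2 adjusted p 0.0286). Batch 2 low-risk livers of 5 months ran from 654 to 1134 CPM of Abcb11, which reaches into the 10-month range. Cyp8b1, a bile acid 12-hydroxylase, had a log2 fold change of 0.46, and 3 of 19 bile acid genes had an unadjusted p under 0.05, all higher, against 3.05% of all genes higher. Without 5-month library 16 there were 2 higher and 3 lower, and without 5-month library 3 or 10-month library 8 or 9 there was 1 higher. Cyp1a2, a pericentral oxidase, had 274 to 610 CPM at 5 months and 178 to 327 CPM at 10 months (-0.84), beside 0.24 in vehicle livers. Vehicle livers had 37.4 to 395 CPM of Cyp1a2 at 5 months (median 290) and 254 to 402 CPM at 10 months (median 312). The interaction of -1.09 had an unadjusted p of 0.0318 (edgeR adjusted p 0.813), and the weight of the lowest vehicle liver in it was not tested. Gstm4, a glutathione transferase, had 0.44, and 14 of 17 NRF2 targets were higher with a median of 0.25, which was 0.14 without 10-month library 8 and 0.12 without 5-month libraries 5 and 16. Zonation lists had medians of -0.16 (14 pericentral genes) and 0.03 (15 periportal genes). Male-biased genes, 11 of 13 lower, had a median of -0.27 and none had an unadjusted p under 0.05, against 4 without 5-month library 2. Cyp4a12b, the male fatty acid hydroxylase, had 16.4 to 65.7 CPM at 5 months and 22.3 to 37.0 CPM at 10 months (-0.53). Cish, a growth hormone target, had 1.47, and Slc40a1, the iron exporter ferroportin, 0.36, beside a called 0.88 in vehicle livers.

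Inflammatory and interferon genes leaned lower. Of 34 interferon-stimulated genes 32 were lower, with a median of -0.34. An unadjusted p under 0.05 was found for 7, all lower, against 4.61% of all genes lower. The count of 7 was 12 without 5-month library 5 and 4 without 10-month library 9. Zbp1, a sensor of Z-form nucleic acid, had 3.99 to 9.22 CPM at 5 months and 2.83 to 4.23 CPM at 10 months (-0.78). Ifit1 and Rsad2, antiviral effectors, had -0.71 (-0.39 without 5-month library 2) and -0.76. In vehicle livers the median was -0.92 and 17 of the 34 fell, against 4.08% of all genes. The interaction had an unadjusted p under 0.05 for 9 of the 34, with a median of 0.49, against 5.83% of all 15677 genes, and no gene passed adjustment. All 22 acute phase genes were lower, 4 with an unadjusted p under 0.05, against 4.61% of all genes lower. Their median of -0.54 was -0.19 without library 3, where Saa1 and Saa2 stood highest. Saa4, the constitutive serum amyloid, had 127 to 660 CPM at 5 months and 119 to 185 CPM at 10 months (-1.30). Saa3 had -3.66, Lcn2 -3.63 and Steap4, a metalloreductase, -1.53. Without library 3, Saa3 had -1.66 and Lcn2 -1.21. All 3 were called lower in vehicle livers. The summed level of the 5 neutrophil genes was 43.8 CPM in library 3 against 3.85 to 9.96 CPM in the other 10 libraries of the neutrophil list, and their part in the acute phase values was not tested.

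Several lower medians at 10 months moved toward 0 when 1 or 2 libraries of 5 months were left out. The 13 mitochondrially encoded genes of oxidative phosphorylation had a median of -1.77, and 0.00 without library 16. Cox6c (0.24) and the other 23 nuclear-encoded subunits of oxidative phosphorylation had a median of 0.09, and -0.04 without library 16. The 10 cholangiocyte genes, all lower, had a median of -1.05 and 6 with an unadjusted p under 0.05, against 4.61% of all genes lower. Without library 2 the median of the 9 still tested was -0.32 and 2 had such a p. Slc5a1 went from -4.77 to 0.11 without it. Proliferation genes had a median of -0.46 over 17 genes and of -0.02 over 15 without library 2. Mki67 had 19.7 CPM in library 2 and 2.28 to 8.16 CPM in the other 10. Heat shock and cold-inducible genes had a median of -0.53, and -0.13 without libraries 5 and 16. Hspa1b, an inducible heat shock protein, had 17.6 and 56.9 CPM in those libraries and 2.18 to 6.72 CPM in the others. Dnajb9, a chaperone of the unfolded protein response, had 222 CPM in library 16 and 27.7 to 65.5 CPM in the others. Atf4, the integrator of that response, differed in a way that spread over libraries. It had 56.8 to 78.0 CPM at 5 months and 76.8 to 99.3 CPM at 10 months. Its log2 fold change was 0.46 (edgeR adjusted p 0.486, DESeq2 adjusted p 0.0227).

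Blood and stromal lists remained. Globins were lower at 10 months: Hbb-bs had 169, 232, 445, 398, 87.7 and 38.8 CPM at 5 months and 25.5, 77.0, 94.5, 55.5 and 139 CPM at 10 months, with overlap through 5-month libraries 7 and 16. Its log2 fold change was -1.55, and those of Hba-a2 and Hba-a1 were -1.69 and -1.39. An unadjusted p under 0.05 was found for 4 of 6 erythroid genes, against 4.61% of all genes lower. The count of 4 was 2 without 5-month library 5 or 6 or 10-month library 2, 4 or 9. In vehicle livers the erythroid median was -0.35 with none called, and the amount of blood in each sample is not known. Single globin genes share near-identical copies, so their split is uncertain. Of 23 stellate cell and collagen genes 21 were lower, with a median of -0.28. An unadjusted p under 0.05 was found for 5, all lower, against 4.61% of all genes lower. Des, the stellate cell filament desmin, had 3.13 to 7.47 CPM at 5 months and 2.09 to 3.29 CPM at 10 months (-0.95). In vehicle livers the median was -0.99 and 6 genes fell, against 4.08% of all genes. The interaction had an unadjusted p under 0.05 for 6 of the 23, against 5.83% of all genes.

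Single members that had the smallest p in their lists filled in the rest. Prox1, a hepatocyte transcription factor, had 129 to 267 CPM at 5 months and 83.4 to 135 CPM at 10 months (-0.76, edgeR adjusted p 0.582), beside a called -0.69 in vehicle livers. Hepatocyte identity genes together had a median of -0.03, with 8 of 16 on each side. Cdh1, the epithelial cadherin, had -0.69, Cd24a -1.20, Tat, the tyrosine aminotransferase, -0.71, Zfp36, which destabilises cytokine mRNA, -0.60, Zmat3, a p53 target, -0.88 (-0.56 without 5-month library 16), Hsp90ab1 -0.46, Gpr182, a receptor of sinusoidal endothelium, -0.41, and Dnmt3b, a DNA methyltransferase, 1.03. The edgeR adjusted p of these 8 ran from 0.5555 to 0.6402. Over all 41 lists, 594 distinct genes were tested, 0 passed adjustment (smallest adjusted p 0.188), and 32 higher and 68 lower ones had an unadjusted p under 0.05, against 3.05% and 4.61% of all genes. List medians were above 0 in 14 lists and below in 27.

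**Figure D4:**
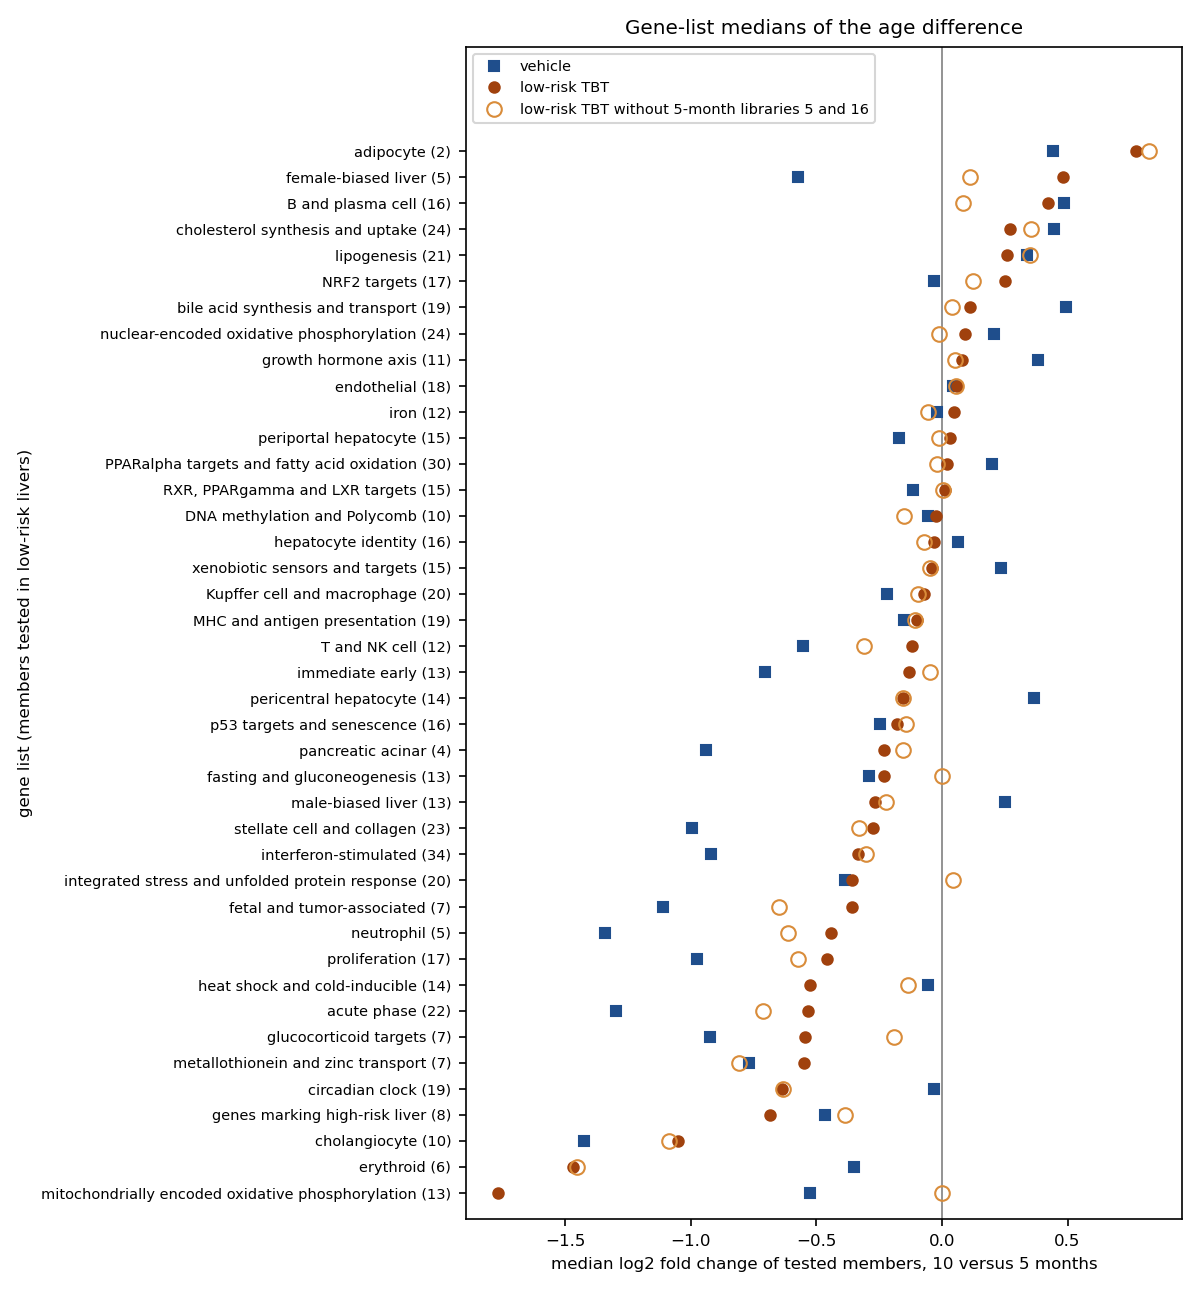
Median log2 fold change (10 versus 5 months) of the tested members of 41 gene lists, in low-risk livers (filled circles), in low-risk livers without 5-month libraries 5 and 16 (open circles) and in vehicle livers (squares). The mitochondrially encoded list moves from -1.77 to 0.00 when those libraries are left out, while the circadian clock stays near -0.64 and lies near 0 in vehicles.

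Vehicle livers over the same ages were then set beside the low-risk livers. In vehicles 580 genes (4.05%) rose and 585 (4.08%) fell with age among 14333 tested (edgeR adjusted p under 0.05). Leaving out vehicle library 9 of 5 months, with 2.83 M counts and 38206 genes detected, gave 3362. Of the 1165 genes, 1159 were tested in low-risk livers and 1057 (91.2%) had the same sign there, against 69.0% of the 14198 genes tested in both. By direction, 531 of 580 genes that rose in vehicles were positive and 526 of 579 that fell were negative. Their median absolute log2 fold change was 0.65 in vehicles, where they were selected, and 0.28 in low-risk livers. At an unadjusted p under 0.05, 301 had the same sign and 4 the opposite sign. Across the 14198 genes the log2 fold changes correlated at r = 0.503 (Spearman's rho 0.480), as a description, since genes are not independent and the groups share a sequencing batch but no library. Without low-risk libraries 5 and 16 the same-sign share was 87.95% (67.71% of all genes). With vehicles fitted without library 9 it was 81.66% of 3353 genes (66.04% of all genes), and with both changes 85.34% (68.48% of all genes).

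**Figure D5:**
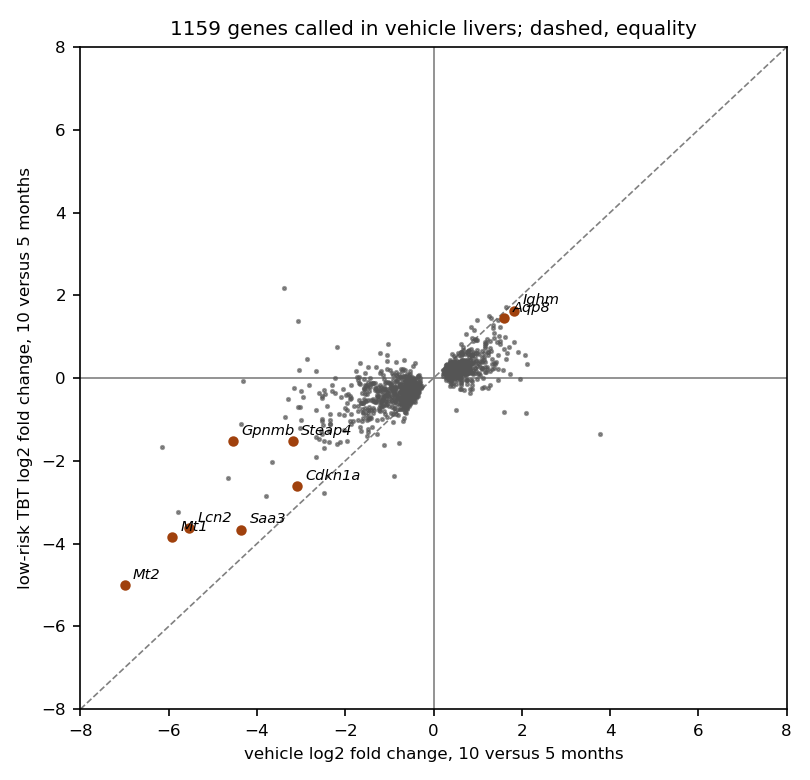
Log2 fold change from 5 to 10 months in vehicle livers (x axis) and in low-risk livers (y axis) for the 1159 genes called in vehicles and tested in both; the dashed line is equality. Of these, 91.2% lie to the lower left or upper right of the origin, and the median absolute value is 0.65 on the vehicle axis and 0.28 on the low-risk axis.

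Whether the age step differed between exposed low-risk and vehicle livers was tested as an interaction over 24 libraries. Of 15677 genes, 0 passed (edgeR, smallest adjusted p 0.226), and 914 (5.83%) had an unadjusted p under 0.05. DESeq2 called 19. Without vehicle library 9 edgeR called 2, Gm45909 and Hpgd, without low-risk library 5 of 5 months 1, Chac2, and without library 9 and low-risk libraries 5 and 16 it called 13. Cyp7a1, the rate-limiting enzyme of bile acid synthesis, was chosen after its values were seen: it had -0.37 in low-risk and 1.67 in vehicle livers, with an interaction of -2.06 (SE 0.84, unadjusted p 0.0229, edgeR adjusted p 0.795). Its levels in low-risk livers ran from 23.6 to 333 CPM at 5 months and from 63.0 to 181 CPM at 10 months. Library 3 of 5 months had the 333 CPM, and the next highest of that age had 189 CPM. Cyp7a1 was not among the genes followed when libraries were left out. The weight of library 3 in its values was not tested. With 5 to 7 libraries in each group and this spread, differences below the interaction's error were not detectable, which does not show that the age steps were equal.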

How the data were processed

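The deposited table holds whole-number gene counts for 55536 genes in 75 libraries. Per the submitters' processing notes, the authors used Trim Galore, HISAT2 and featureCounts on mm10, and per the file name the counts were adjusted with ComBat-seq, a batch adjustment that can shift counts, so the totals given are those of adjusted counts. Versions, the strand setting, the annotation release and the batch adjustment's group settings are not given in the sources used here. RNeasy columns with DNase digestion and TruSeq Stranded Total RNA kits were used, per the labels' protocols.

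The deposited counts went into edgeR 4.0.16 (under R 4.3.3) with TMM scaling, filterByExpr, robust quasi-likelihood F tests and Benjamini-Hochberg adjustment at 0.05, with the 2 ages fitted alone. Vehicles were fitted in the same way, and the interaction in 1 fit of 24 libraries. SEs are those implied by F. The fits were tested on simulated counts. DESeq2 1.42.0 and limma 3.58.1 were alternatives, beside RLE scaling, no filter, protein-coding genes, other sample sets and leaving out single libraries. Libraries 5 and 16 left out together (also with vehicle 9 from the interaction), voom quality weights and single libraries left out of the library measures were added after the data were seen. No pair of libraries within an age agreed within sampling noise. Positions are from GENCODE M21 and promoters from RefSeq.

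The groups compared, the members and the gene lists were chosen with earlier results of these data known. The rule for named genes took, in each direction, at most 12 genes passing adjustment, a mean of at least 5 CPM and no overlap, which gave 0, plus the 1 member with the smallest p in each list (41 picks, 40 distinct genes, not all of which are described). Others named were chosen after their values were seen. Some items are not reported here.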

Additional observations from a re-analysis of the deposited data

Results flagged for a closer look

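Within the 6 libraries of 5 months and the 5 of 10 months, 4 library measures and 74 genes were searched for a library whose gap to its nearest neighbour takes up most of the group's range. Such a gap was found in 12 of 156 cases. Chance flags about 1 in 20 groups, but several of these genes were chosen because 1 library stood out, so the count is a description and is not set against chance. At 5 months, library 2 stood high in Krt19 (74.8 CPM), Epcam (91.5 CPM) and Slc5a1 (429 CPM), library 7 in total counts (45.1 M), and library 16 in its mitochondrial share (11.2%), mt-Nd6 (4143 CPM) and mt-Nd5 (19860 CPM). At 10 months, library 2 stood high in Ccnd2 (9.75 CPM) and mt-Nd5 (1282 CPM), library 8 low in Cish (5.56 CPM), and library 9 low in Acss2 (189 CPM) and Pmvk (32.9 CPM), where 5-month levels were reached.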

How the results depend on the processing

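The low-risk count of genes with adjusted p under 0.05 was 0 and stayed 0 under RLE scaling, without a filter, for protein-coding genes, without library 16 (the only technically deviating low-risk library) and with all 16 low-risk 5-month libraries. In that last fit the batch 2 libraries bear only on the spread. It was 51 with DESeq2, 2 with 4 groups in one fit, 1 with limma voom quality weights, 3 without 5-month libraries 5 and 16, and 0 to 1 when single libraries were left out (Mt2 without 5-month number 6, CT010467.1 without 7). The interaction count of 0 became 19 with DESeq2, 1 without technically deviating libraries, 13 without low-risk 5 and 16 and vehicle 9, and 0 to 2 with single libraries left out. The vehicle count of 1165 ran from 561 to 3362 with single libraries left out, moving by over 1.5 times without 5-month vehicle 9 (3362) or 4 (743) and without 10-month vehicles 1, 2, 4, 6 or 7 (561 to 712). Differences in library measures ranged from 7.82 to 15.3 M total counts, from -71.6 to 2014 genes detected, from -1.94 to -0.155 percentage points mitochondrial and from -1.73 to -0.915 points in the 20 most abundant genes. The total passed (adjusted p 0.0318, exact permutation) without 5-month library 7 and the share of the 20 genes without library 2. Only 74 of the named genes were followed through these settings, and Cyp7a1 was not among them. Of their 1478 values, 3 changed sign: Slc5a1 without library 2 (-5.04 to 0.11 over the libraries left out), and Hspa1b without libraries 5 and 16 (0.38) and with voom weights (0.039). No paired analysis was possible because the ages share only number 2, which names different mice. The shallowest low-risk library (7.72 M) limits genes near 1 CPM.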
